A study of Mus musculus with 6 samples.

Results

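A set of 9 transcription factor genes of the myeloid lineage, the branch of blood cells that gives rise to macrophages and the microglia of the brain, are described here in mouse visual cortex. They are Spi1, Irf8, Irf5, Runx1, Ikzf1, Cebpa, Cebpb, Bhlhe41 and Mitf, chosen by gene symbol, and make up 9 of the 54429 genes of the deposited table. The tissue was cortical area V1 of 9-week-old female mice of the C57BL background, and total RNA was sequenced. Every mouse had an adeno-associated virus (AAV), a vector that delivers hairpin RNAs to cells, injected into V1. The 2 libraries labelled shCSB/shNDN carried hairpins against CSB and necdin, the 2 labelled shCSB a hairpin against CSB alone, and the 2 labelled shControl a control hairpin. CSB, the product of Ercc6, acts in transcription-coupled DNA repair, and necdin is the product of the imprinted gene Ndn. The series title concerns necdin in Cockayne syndrome, so the design sets each hairpin group against shControl and the double hairpin against shCSB. The series text gives 2 mice per genotype. The promoter that drives the hairpins is not given in the sources used here.

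PU.1, the product of Spi1, is an ETS factor that opens myeloid enhancers and without which mice form no microglia. IRF8 binds DNA poorly alone and is recruited by PU.1 to joint sites, and RUNX1 and C/EBPα act with PU.1 when blood progenitors commit to the myeloid branch. Ikaros (Ikzf1) is a zinc finger factor of blood cells. IRF5 and C/EBPβ drive inflammatory genes after receptor signals, and BHLHE41 is a repressor of the circadian clock that also acts in macrophages. MITF controls pigment cells, mast cells and osteoclasts, and belongs to the same family as the lysosomal regulator TFEB.

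The labels and libraries were checked first. Ercc6 stood at 1.61 and 1.81 FPKM (fragments per kilobase of gene length, scaled to library depth) in the libraries labelled shCSB/shNDN and 1.29 and 1.61 FPKM in those labelled shCSB, against 1.46 and 1.22 FPKM in shControl, so the hairpin target was not lower. Ndn was at 16.8 and 41.0 FPKM under the label shCSB/shNDN and 47.9 and 38.1 FPKM under shCSB, against 56.1 and 49.8 FPKM in shControl. Both hairpin groups lay below the controls for Ndn and overlapped each other. The fitted log2 change of Ndn for shCSB/shNDN against shCSB was -0.68 (95% interval -1.62 to 0.26). Directions below therefore belong to the labels. Libraries held 15731788 to 17365285 reads, and a count of 3 reads, the limit a count of 0 allows, equalled 0.169 to 0.201 FPKM for a gene of 1 kilobase. Replicate 2 of shCSB/shNDN stood apart, with 1.41% of reads from the mitochondrial genome and 435 genes at exactly 1 read, against 4.95% to 7.65% and 1597 to 1839 genes in the other 5 libraries. Its correlation with replicate 1 over the 16254 genes tested (genes are no independent replicates) was 0.939, and both libraries correlated better with each of the other 4, at 0.944 to 0.957. Fitted changes and lists that rest on this pair are therefore also given without each of its libraries. In these fits the lone library is assumed to vary like the other groups.

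All 9 genes were detected in every library, and the order of their levels was nearly the same in the 4 libraries labelled shCSB or shControl. In shControl the order by FPKM, which is per gene length, was Cebpb (16.9 and 13.7), Cebpa (7.46 and 8.03), Bhlhe41 (5.44 and 5.07), Spi1 (3.24 and 2.78), Irf5 (1.88 and 2.03), Irf8 (1.44 and 0.779), Mitf (0.793 and 0.886), Ikzf1 (0.319 and 0.278) and Runx1 (0.0817 and 0.0446). Only the neighbours Irf8 and Mitf overlapped between the 2 control libraries. In replicate 1 of shCSB/shNDN the order changed to Cebpa, Spi1, Cebpb, Irf8, Irf5, Bhlhe41, Ikzf1, Mitf and Runx1. In replicate 2 it kept Cebpb, Cebpa, Bhlhe41 and Spi1 at the top. The summed level of the 9 genes was 123 and 68.5 FPKM in shCSB/shNDN and 37.2 and 35.6 FPKM in shCSB, against 37.5 and 33.6 FPKM in shControl. In bulk tissue, more cells of a type and more RNA per cell cannot be told apart, and this holds for every level below.

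**Figure D1:**
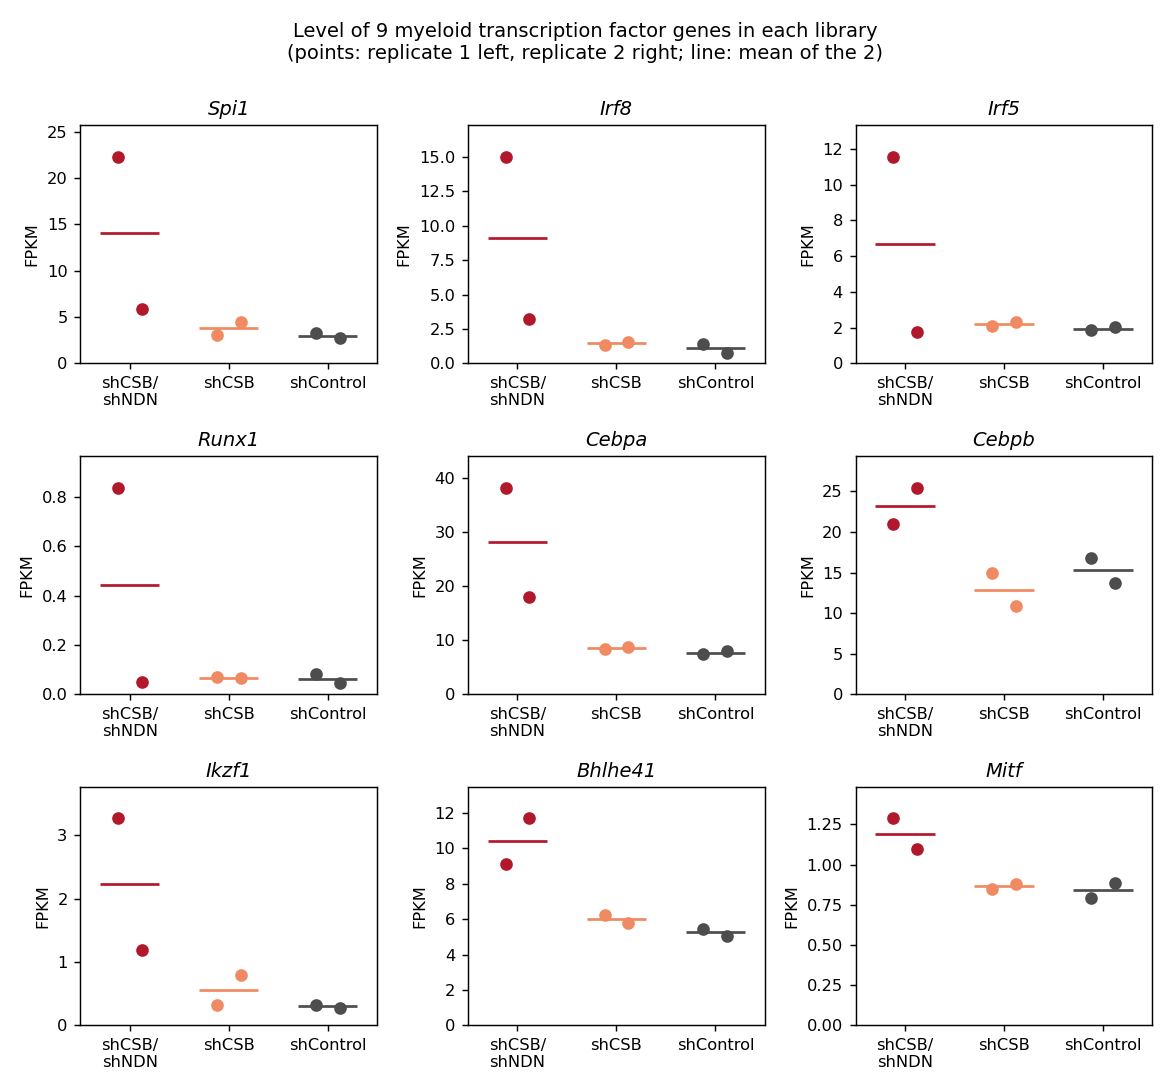
FPKM of each of the 9 genes (vertical axis, from 0) in the libraries labelled shCSB/shNDN, shCSB and shControl (horizontal axis). Points are single libraries and the line is the mean of the 2. Replicate 1 of shCSB/shNDN lies far above all others for Spi1, Irf8, Irf5, Runx1, Ikzf1 and Cebpa, while both libraries of that group lie above the rest for Cebpb, Bhlhe41 and Mitf.

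Spi1 (ENSMUSG00000002111, GRCm38 chromosome 2, 91082390 to 91115756, plus strand) had 22.3 and 5.90 FPKM in the libraries labelled shCSB/shNDN and 3.04 and 4.52 FPKM in those labelled shCSB, against 3.24 and 2.78 FPKM in shControl. Both shCSB/shNDN libraries were above the other 4, and replicate 1 was 3.79 times replicate 2 (95% counting interval 3.31 to 4.34, exact binomial on the reads). The fitted log2 change was 1.43 ± 0.53 (SE) against shCSB and 1.66 ± 0.53 against shControl (limma adjusted p = 0.576 and 0.308). Without replicate 1 of shCSB/shNDN these changes were 0.55 and 0.78, and without replicate 2 they were 2.30 and 2.54. The shCSB libraries overlapped the controls, with a log2 change of 0.24 ± 0.53 (adjusted p = 1).

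Irf8 (ENSMUSG00000041515, GRCm38 chromosome 8, 120736358 to 120756694, plus strand), which encodes the partner of PU.1, had 15.0 and 3.25 FPKM in shCSB/shNDN and 1.36 and 1.56 FPKM in shCSB, against 1.44 and 0.779 FPKM in shControl. Again both shCSB/shNDN libraries were above the other 4. Its fitted log2 change was the highest of the members tested, at 1.75 ± 0.57 (SE) against shCSB and 1.99 ± 0.57 against shControl (limma adjusted p = 0.535 and 0.294). Leaving out replicate 1 of shCSB/shNDN gave 0.79 and 1.03, and leaving out replicate 2 gave 2.71 and 2.95. Against shControl, the shCSB libraries differed by 0.24 ± 0.57 and overlapped the controls (adjusted p = 1).

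Irf5 (ENSMUSG00000029771, GRCm38 chromosome 6, 29526625 to 29541871, plus strand), an activator of cytokine genes below Toll-like receptors, had 11.6 and 1.75 FPKM in shCSB/shNDN and 2.08 and 2.34 FPKM in shCSB, against 1.88 and 2.03 FPKM in shControl. It was high in replicate 1 alone, and replicate 2 was the lowest of all 6 libraries. The 2 differed 6.62-fold (95% counting interval 5.27 to 8.39). Its log2 change in the fit was 0.87 ± 0.63 (SE) against shCSB and 0.99 ± 0.63 against shControl (limma adjusted p = 0.745 and 0.533), without replicate 1 it was -0.22 and -0.10, and without replicate 2 it was 1.97 and 2.09.

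Runx1 (ENSMUSG00000022952, GRCm38 chromosome 16, 92601466 to 92826149, minus strand), the factor of definitive blood formation, behaved like Irf5 at a far lower level. It had 0.838 and 0.0486 FPKM in shCSB/shNDN and 0.0711 and 0.0654 FPKM in shCSB, against 0.0817 and 0.0446 FPKM in shControl. These rest on 172 and 10 reads in shCSB/shNDN and 14 and 14 reads in shCSB, against 16 and 8 reads in shControl. Replicate 1 was 17.2 times replicate 2 (95% counting interval 9.16 to 36.6), and replicate 2 lay within the control range. Only 1 library reached 0.5 FPKM, so Runx1 did not pass the filter of 0.5 FPKM in at least 2 libraries and was not tested.

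Ikzf1 (ENSMUSG00000018654, GRCm38 chromosome 11, 11685003 to 11772926, plus strand) had 3.27 and 1.19 FPKM in shCSB/shNDN and 0.317 and 0.798 FPKM in shCSB, against 0.319 and 0.278 FPKM in shControl. Both shCSB/shNDN libraries were above the other 4, and replicate 2 of shCSB was 2.52 times its replicate 1. The fitted log2 change was 0.99 ± 0.34 (SE) against shCSB and 1.24 ± 0.34 against shControl (limma adjusted p = 0.557 and 0.285). Without replicate 1 of shCSB/shNDN these changes were 0.51 and 0.76, and without replicate 2 they were 1.47 and 1.72. The added 1 in log2(FPKM + 1) weighs on so low a gene, and the changes were 1.77 and 2.39 with 0.1 added and 1.94 and 2.70 with limma-voom on the reads. Ikzf1 passed the filter only through the shCSB/shNDN pair and that shCSB library, while the other 7 genes tested exceeded 0.5 FPKM in every library.

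Cebpa (ENSMUSG00000034957, GRCm38 chromosome 7, 35119293 to 35121928, plus strand) encodes C/EBPα, which commits progenitors to granulocytes and monocytes. It had 38.3 and 18.1 FPKM in shCSB/shNDN and 8.38 and 8.70 FPKM in shCSB, against 7.46 and 8.03 FPKM in shControl. Both shCSB/shNDN libraries were more than double the level of every other library. Its log2 change in the fit was 1.52 ± 0.33 (SE) against shCSB and 1.65 ± 0.33 against shControl (limma adjusted p = 0.390 and 0.211), the smallest p of the members in both. Leaving out replicate 1 of shCSB/shNDN gave 1.00 and 1.13, and leaving out replicate 2 gave 2.04 and 2.17. An antisense gene on the opposite strand, Gm45091, had 1.63 and 3.59 FPKM in shCSB/shNDN and 1.94 and 0.111 FPKM in shCSB, against 1.22 and 2.26 FPKM in shControl, and the strand setting of the counting is not given in the sources used here.

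Cebpb (ENSMUSG00000056501, GRCm38 chromosome 2, 167688915 to 167690418, plus strand), an inflammation-induced factor that neurons and astrocytes also express, had 21.0 and 25.5 FPKM in shCSB/shNDN and 14.9 and 10.9 FPKM in shCSB, against 16.9 and 13.7 FPKM in shControl. Here replicate 2 was the higher of the pair, and both were above the other 4 libraries. The fitted log2 change was 0.81 ± 0.22 (SE) against shCSB and 0.58 ± 0.22 against shControl (limma adjusted p = 0.475 and 0.341). Without replicate 1 of shCSB/shNDN these changes were 0.94 and 0.71, and without replicate 2 they were 0.67 and 0.44. It was the only member with a negative change for shCSB against shControl, -0.23 ± 0.22 (adjusted p = 1). Tmem189, which overlaps it on the other strand, had 16.2 and 12.1 FPKM in shCSB/shNDN and 14.7 and 14.2 FPKM in shCSB, against 16 and 16.6 FPKM in shControl.

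Bhlhe41 (ENSMUSG00000030256, GRCm38 chromosome 6, 145858243 to 145865558, minus strand) had 9.13 and 11.7 FPKM in shCSB/shNDN and 6.26 and 5.76 FPKM in shCSB, against 5.44 and 5.07 FPKM in shControl. The shCSB/shNDN pair lay above the other 4 libraries and replicate 2 was again the higher. Its log2 change in the fit was 0.69 ± 0.17 (SE) against shCSB and 0.86 ± 0.17 against shControl (limma adjusted p = 0.447 and 0.215). Leaving out replicate 1 of shCSB/shNDN gave 0.86 and 1.02, and leaving out replicate 2 gave 0.53 and 0.70. The predicted gene Gm43909, on the other strand inside the gene, had 1.25 and 0.779 FPKM in shCSB/shNDN and 0.651 and 0.599 FPKM in shCSB, against 0.426 and 0.393 FPKM in shControl.

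Mitf (ENSMUSG00000035158, GRCm38 chromosome 6, 97807052 to 98021349, plus strand) differed least. It had 1.29 and 1.09 FPKM in shCSB/shNDN and 0.847 and 0.880 FPKM in shCSB, against 0.793 and 0.886 FPKM in shControl, with no overlap between the shCSB/shNDN pair and the rest. The fitted log2 change was 0.23 ± 0.18 (SE) against shCSB and 0.25 ± 0.18 against shControl (limma adjusted p = 0.756 and 0.577). Without replicate 1 of shCSB/shNDN these changes were 0.17 and 0.19, and without replicate 2 they were 0.30 and 0.31. With 0.1 added before the log they were 0.42 and 0.45, and with limma-voom 0.46 and 0.50. The gene has 8 annotated transcripts, and a value per gene does not tell its cell-type-specific isoforms apart.

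**Figure D2:**
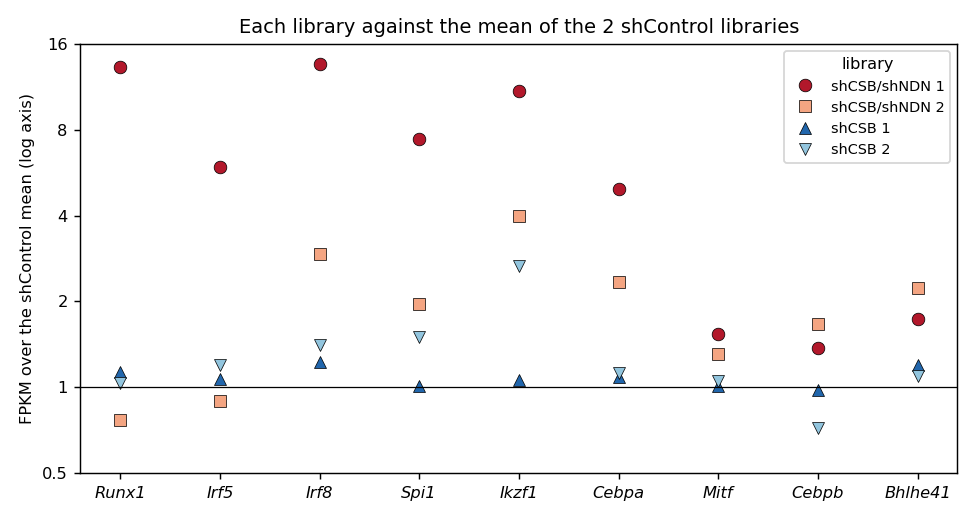
FPKM of each gene in 4 libraries over the mean of the 2 shControl libraries (vertical log axis), with genes ordered by the ratio of replicate 1 to replicate 2 of shCSB/shNDN, from 17.2 for Runx1 to 0.781 for Bhlhe41. The circles of replicate 1 reach 13.6 for Irf8, while the squares of replicate 2 lie between 0.770 and 4.0.

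The 2 libraries labelled shCSB/shNDN differed in the size of their distance from shControl, and for Runx1 and Irf5 they lay on opposite sides of its mean, as the plot of folds by library shows. Over the shControl mean, replicate 1 and replicate 2 stood at 13.6 and 2.93 times for Irf8, at 10.9 and 4.0 times for Ikzf1, at 7.42 and 1.96 times for Spi1 and at 4.95 and 2.34 times for Cebpa. For Runx1 they stood at 13.3 and 0.770 times and for Irf5 at 5.92 and 0.895 times. In both genes the 95% counting interval of replicate 2 included both shControl values. It was 0.0233 to 0.0894 FPKM for Runx1 and 1.40 to 2.16 FPKM for Irf5. The order was turned round for Bhlhe41, at 1.74 and 2.23 times, and for Cebpb, at 1.38 and 1.67 times. Counting intervals of the ratio between the 2 libraries left out 1 for every member except Mitf, whose ratio was 1.18 (0.911 to 1.52). Over the 6 libraries, the log2 profile of Spi1 had a Pearson r of 0.990 with Irf8, 0.989 with Ikzf1, 0.962 with Cebpa, 0.930 with Irf5, 0.928 with Mitf, 0.639 with Bhlhe41 and 0.521 with Cebpb. These are descriptions that share the high replicate 1 of shCSB/shNDN.

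Promoters of the genes that were most unequal between these 2 libraries (Runx1, Irf5 and Irf8) and of the pair with the reverse order (Bhlhe41 and Cebpb) are shown so that members that moved together can be compared. They are the 250 bases before a RefSeq transcription start on GRCm38.p6, read 5′ to 3′ along the gene's strand, and 8 of the 9 members, all but Spi1, had an entry. Irf8, Runx1 and Ikzf1 have 2 RefSeq starts and Mitf has 3, and only the start nearest the gene's annotated start was searched. For Ikzf1 it lay 922 bases from the annotated start. Capitals mark letters that match a motif searched.

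Runx1, chr16:92826075-92826324, minus strand: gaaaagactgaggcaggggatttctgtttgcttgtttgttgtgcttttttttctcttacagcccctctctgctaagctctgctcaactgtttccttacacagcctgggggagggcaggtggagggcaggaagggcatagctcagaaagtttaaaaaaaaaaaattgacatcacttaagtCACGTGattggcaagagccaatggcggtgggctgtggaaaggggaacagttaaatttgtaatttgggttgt
Irf5, chr6:29526375-29526624, plus strand: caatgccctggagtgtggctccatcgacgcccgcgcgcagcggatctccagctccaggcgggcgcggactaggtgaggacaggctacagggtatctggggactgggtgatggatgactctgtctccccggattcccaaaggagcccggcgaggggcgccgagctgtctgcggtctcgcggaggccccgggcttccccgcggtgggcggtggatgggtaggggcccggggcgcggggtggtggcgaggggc
Irf8, chr8:120736108-120736357, plus strand: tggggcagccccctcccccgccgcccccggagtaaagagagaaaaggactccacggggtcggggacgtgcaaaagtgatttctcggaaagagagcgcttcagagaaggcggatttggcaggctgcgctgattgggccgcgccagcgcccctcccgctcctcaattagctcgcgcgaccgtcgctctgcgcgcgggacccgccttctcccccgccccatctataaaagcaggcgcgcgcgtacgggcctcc
Bhlhe41, chr6:145865421-145865670, minus strand: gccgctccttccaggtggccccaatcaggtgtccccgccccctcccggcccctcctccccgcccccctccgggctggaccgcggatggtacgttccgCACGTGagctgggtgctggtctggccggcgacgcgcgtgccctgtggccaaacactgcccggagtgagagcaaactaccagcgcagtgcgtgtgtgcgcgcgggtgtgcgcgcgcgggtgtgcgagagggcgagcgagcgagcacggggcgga
Cebpb, chr2:167688665-167688914, plus strand: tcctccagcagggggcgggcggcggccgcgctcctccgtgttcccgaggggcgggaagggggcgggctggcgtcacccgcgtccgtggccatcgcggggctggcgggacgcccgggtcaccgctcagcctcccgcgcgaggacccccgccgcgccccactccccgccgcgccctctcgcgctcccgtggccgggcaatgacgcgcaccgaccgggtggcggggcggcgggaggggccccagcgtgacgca

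The motifs, searched on both strands, were GAGGAAGT for PU.1, GGAANNGAA for PU.1 with an IRF, GAAANNGAA for an IRF, TGTGGT for RUNX, TTGCNNAA for C/EBP and CACGTG, the E-box read by bHLH factors such as BHLHE41 and MITF. The first 3 share letters and can overlap. None of the 8 promoters held the PU.1, PU.1 with IRF or IRF letters, which occur in 2.44%, 6.99% and 7.13% of 32851 promoter windows of the same length. The E-box stood 71 bases before the Runx1 start and 153 bases before the Bhlhe41 start, against 6.02% of windows. The promoter of Mitf nearest the table's start held the RUNX letters 81 bases and the C/EBP letters 129 bases before the start, which occur in 14.0% and 9.56% of windows. The promoters shown had a GC content of 45.6% for Runx1, 72.0% for Irf5, 67.2% for Irf8, 73.6% for Bhlhe41 and 81.6% for Cebpb. Such matches describe letters in a window and say nothing of binding.

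For the libraries labelled shCSB/shNDN against those labelled shCSB, all 8 genes tested had a positive log2 change and none passed the threshold of a limma adjusted p of 0.05, where 0% of 16254 genes did. The median of the members was 0.93, against -0.0083 over all genes. At an unadjusted p under 0.05, 6 of the 8 were higher (Spi1, Irf8, Cebpa, Cebpb, Ikzf1 and Bhlhe41), against 4.74% of all genes, and limma-voom on the recovered reads also gave 6. This count was 3 without either one of the shCSB libraries and 4 without replicate 1 of shCSB/shNDN. Ikzf1 would not have passed the filter without the shCSB/shNDN pair, so its place in these counts and medians is not independent of the filter. In 7 of the 8 tested, all but Irf5, both libraries lay above both shCSB libraries, against 16.5% of all genes. Runx1, which was not tested, overlapped as well. When replicate 2 was left out, 5 members passed the adjusted threshold, against 2.86% of genes called higher. These were Spi1, Irf8, Irf5, Cebpa and Ikzf1, and the median was 1.72. When replicate 1 was left out, Cebpa and Bhlhe41 passed, at log2 changes of 1.00 and 0.86, against 2.3% of genes, and the median was 0.67.

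Against shControl, the libraries labelled shCSB/shNDN again had all 8 tested genes above 0, with a median of 1.11 against -0.0075 over all genes. No member passed the adjusted threshold, which 0.00615% of genes did, a single microRNA locus (limma). The members with an unadjusted p under 0.05 were the same 6, against 6.71% of genes higher at that level, and limma-voom again gave 6. This count was 4 without replicate 1 and 3 without replicate 2 of shControl. Here too Ikzf1 is counted, which needed the shCSB/shNDN pair to pass the filter. Both libraries lay above both controls for 7 of the 8 members tested, all but Irf5, against 20.7% of all genes. The untested Runx1 overlapped the controls. Without replicate 2, 5 members passed, against 3.59% of genes called higher, at log2 changes of 2.54 for Spi1, 2.95 for Irf8, 2.09 for Irf5, 2.17 for Cebpa and 1.72 for Ikzf1. Without replicate 1, 3 members passed, against 4.61% of genes, at 1.03 for Irf8, 1.13 for Cebpa and 1.02 for Bhlhe41. This comparison shares its shCSB/shNDN libraries with the one before, so the 2 are not independent.

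For the libraries labelled shCSB against shControl, the 8 genes lay between -0.23 and 0.24 on the log2 scale, with 7 above 0, a median of 0.15 and a median of -0.0035 over all genes. No member passed the adjusted threshold, where 0% of genes did, and none had an unadjusted p under 0.05, where 1.21% of genes were higher, by limma or by limma-voom. The shCSB pair lay above the controls for 3 of the 8 members tested, Irf5, Cebpa and Bhlhe41, against 18.3% of all genes. The median was 0.040 without replicate 2 of shCSB. The 95% intervals were wide, from -1.04 to 1.51 for Spi1 and from -0.66 to 0.91 for Cebpa, so changes of these sizes were not detectable. With 2 libraries a group, no exact permutation test can go below a two-sided p of 0.333, so none was used.

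**Figure D3:**
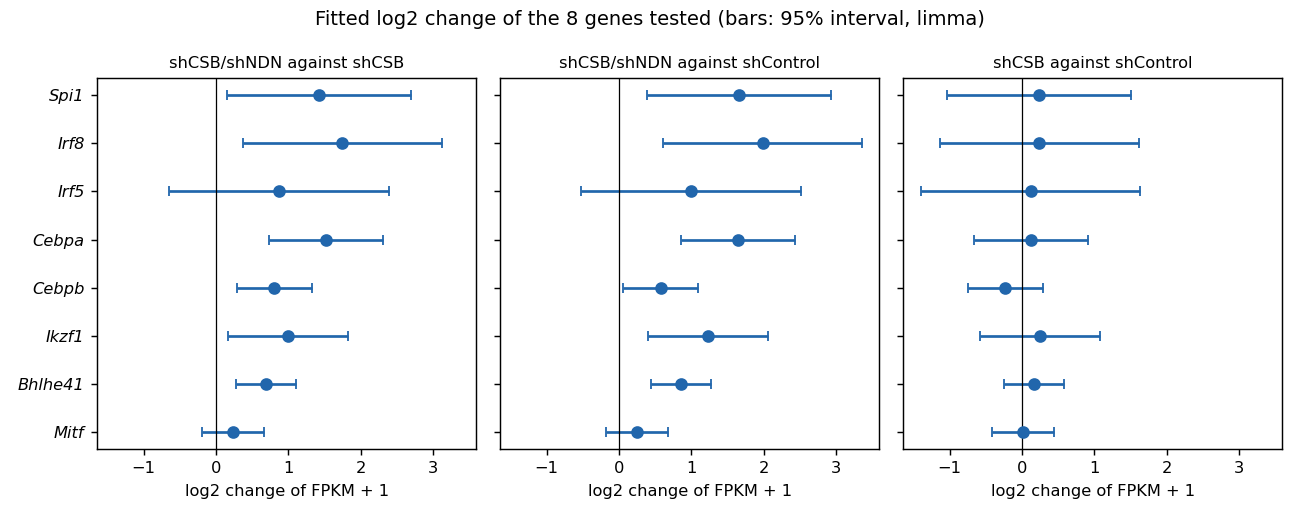
Fitted log2 change of FPKM + 1 (horizontal axis) with its 95% interval for the 8 genes tested, in the 3 comparisons. The intervals of Spi1, Irf8, Cebpa, Cebpb, Ikzf1 and Bhlhe41 lie above 0 in both comparisons of shCSB/shNDN, and all intervals of shCSB against shControl include 0.

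Among 912 other genes that passed the filter and have a transcription factor family in the authors' deposited table, the median change was -0.020 for shCSB/shNDN against shCSB, -0.0045 for shCSB/shNDN against shControl and 0.021 for shCSB against shControl. Both shCSB/shNDN libraries lay above both controls for 21.9% of these 912, and 99 of them, or 10.9%, had an unadjusted p under 0.05 in either direction, against 13.4% of all genes.

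Markers of microglia, border-associated macrophages and meningeal fibroblasts were among those at higher levels in shCSB/shNDN than in shControl. The summed level of 10 microglia markers was 594 and 188 FPKM in shCSB/shNDN and 101 and 125 FPKM in shCSB, against 90.2 and 97.3 FPKM in shControl, and 7 of the 10 lay above both controls in both shCSB/shNDN libraries, against 20.7% of all genes. Against shCSB, 5 of the 10 lay above both libraries, against 16.5% of all genes. Among them, Fcrls had 156 and 58.2 FPKM in shCSB/shNDN and 12.4 and 12.6 FPKM in shCSB, against 11.0 and 12.8 FPKM in shControl. P2ry12, the purine receptor of resting microglia, was at 15.8 and 3.51 FPKM in shCSB/shNDN and 7.94 and 13.8 FPKM in shCSB, against 7.94 and 8.47 FPKM in shControl, so replicate 2 held the lowest value. The 7 markers of border-associated macrophages summed to 7.53 and 8.74 FPKM in shCSB/shNDN and 3.12 and 2.07 FPKM in shCSB, against 1.90 and 1.98 FPKM in shControl. Of these, 6 were above both controls in both shCSB/shNDN libraries, against 20.7% of all genes, and 4 were above both shCSB libraries, against 16.5%. Several rest on few reads, with F13a1 at 2 and 2 reads and Cd163 at 7 and 7 reads in shControl. The 5 meningeal fibroblast markers summed to 8.24 and 7.65 FPKM in shCSB/shNDN and 10.1 and 8.90 FPKM in shCSB, against 4.68 and 3.09 FPKM in shControl. Of the 5, 4 lay above both controls in both shCSB/shNDN libraries, against 20.7% of all genes. All 5 lay above both controls in both shCSB libraries, against 18.3% of all genes. The part of these cells in the members' levels was not tested.

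Markers of other blood cells and of pigment cells differed widely in level. The 5 red blood cell markers summed to 186 and 272 FPKM in shCSB/shNDN and 145 and 242 FPKM in shCSB, against 183 and 282 FPKM in shControl. The 6 T and NK cell markers summed to 19.3 and 27.4 FPKM in shCSB/shNDN and 26.8 and 28.2 FPKM in shCSB, against 33.7 and 33.5 FPKM in shControl. Nearly all of that sum was Trbc2, a T cell receptor constant gene. Of these 6 markers, 4 lay above both controls in both shCSB/shNDN libraries, against 20.7% of all genes. Apart from Trbc2, none exceeded 20 reads in any library. Cd3e, for instance, had 20 and 5 reads in shCSB/shNDN against 0 and 2 reads in shControl. The 6 monocyte markers summed to 2.77 and 0.133 FPKM in shCSB/shNDN and 1.48 and 0.569 FPKM in shCSB, against 0.0854 and 0.183 FPKM in shControl. The 7 neutrophil markers summed to 1.54 and 1.01 FPKM in shCSB/shNDN and 0.966 and 3.88 FPKM in shCSB, against 1.02 and 1.41 FPKM in shControl, with Retnlg and Ly6g at 0 in all libraries. The 6 B and plasma cell markers summed to 7.28 and 3.14 FPKM in shCSB/shNDN and 7.5 and 3.92 FPKM in shCSB, against 1.33 and 1.37 FPKM in shControl. For the cells known for MITF, 4 mast cell markers were at 0 in shCSB/shNDN and shControl and summed to 0.121 and 0.535 FPKM in shCSB. The 6 melanocyte markers summed to 0.866 and 0.358 FPKM in shCSB/shNDN and 0.511 and 0.599 FPKM in shCSB, against 0.431 and 0.485 FPKM in shControl. The cortex label was borne out by 5 excitatory neuron markers, which summed to 759 and 515 FPKM in shCSB/shNDN and 795 and 796 FPKM in shCSB, against 875 and 978 FPKM in shControl.

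Set against the summed microglia markers of the same library, the members fell into different patterns. Spi1 amounted to 3.76% and 3.13% of that sum in shCSB/shNDN and 3.02% and 3.62% in shCSB, against 3.59% and 2.86% in shControl, so replicate 1 of shCSB/shNDN was just above the range of the other 4 libraries and replicate 2 within it. Cebpa was at 6.45% and 9.61% in shCSB/shNDN and 8.34% and 6.95% in shCSB, against 8.27% and 8.26% in shControl. Irf8 was above all other libraries, at 2.53% and 1.73% in shCSB/shNDN and 1.35% and 1.25% in shCSB, against 1.59% and 0.800% in shControl. Ikzf1 was at 0.550% and 0.634% in shCSB/shNDN and 0.315% and 0.638% in shCSB, against 0.354% and 0.286% in shControl. Irf5 was at 1.95% and 0.930% in shCSB/shNDN and 2.07% and 1.87% in shCSB, against 2.09% and 2.09% in shControl, so replicate 2 was the low one. Cebpb stood at 3.53% and 13.5% in shCSB/shNDN and 14.8% and 8.75% in shCSB, against 18.7% and 14.1% in shControl. Bhlhe41 was likewise low in replicate 1, at 1.54% and 6.21% in shCSB/shNDN and 6.23% and 4.61% in shCSB, against 6.03% and 5.22% in shControl. Mitf was low in both shCSB/shNDN libraries, at 0.216% and 0.581%, and was at 0.843% and 0.703% in shCSB and 0.879% and 0.911% in shControl. Runx1 was at 0.141% and 0.0258% in shCSB/shNDN and 0.0707% and 0.0523% in shCSB, against 0.0906% and 0.0458% in shControl. Outside replicate 1 of shCSB/shNDN, the Runx1 values rest on few reads. These are ratios of levels, and markers may change per cell.

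**Figure D4:**
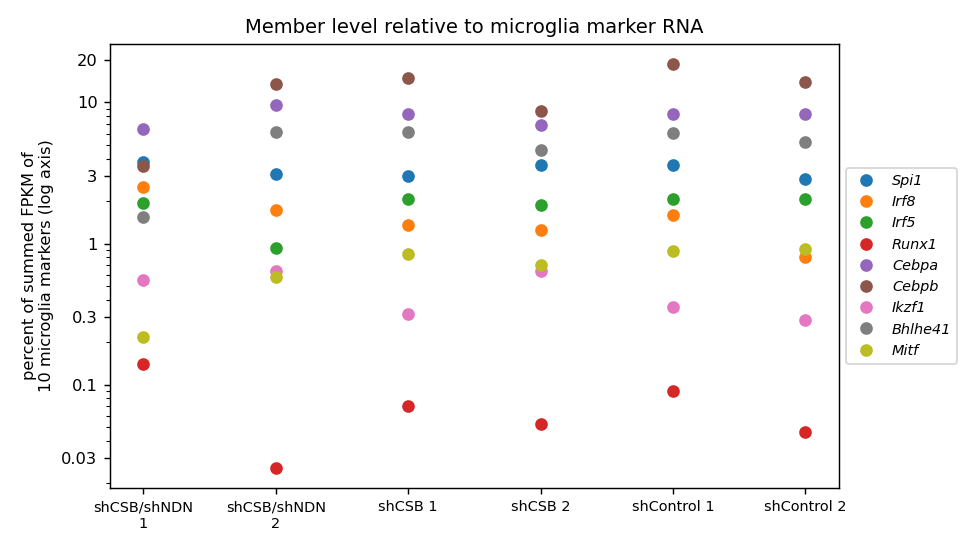
Level of each gene as a percent of the summed FPKM of 10 microglia markers in the same library (vertical log axis), by library. Spi1 stays between 2.86% and 3.76% in all 6 libraries, while Cebpb is at 3.53% in replicate 1 of shCSB/shNDN and at 8.75% to 18.7% in the others.

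Relatives of the members in the same families, together with the RUNX partner gene Cbfb from outside them, were followed through 23 genes. Of these, 14 passed the filter and none passed the adjusted threshold in any comparison (limma, smallest adjusted p = 0.250, for Cbfb). For shCSB/shNDN against shControl, 12 of 14 lay above 0 with a median of 0.34, 8 had both libraries above both controls, against 20.7% of all genes, and 5 were higher at an unadjusted p under 0.05, against 6.71%. The median was 0.36 without replicate 1 and 0.28 without replicate 2 of shCSB/shNDN. Against shCSB the median was 0.38 with both, 0.16 without replicate 1 and 0.33 without replicate 2. Cbfb, the non-DNA-binding partner of RUNX proteins, had 9.68 and 7.56 FPKM in shCSB/shNDN and 5.40 and 6.10 FPKM in shCSB, against 5.08 and 4.45 FPKM in shControl, a log2 change of 0.73 against shControl. Cebpd, an inflammation-induced C/EBP gene, had 7.32 and 5.21 FPKM in shCSB/shNDN and 2.62 and 2.79 FPKM in shCSB, against 3.64 and 2.27 FPKM in shControl. Irf7, the interferon-induced amplifier of the interferon response, had 16.7 and 2.77 FPKM in shCSB/shNDN and 1.91 and 3.04 FPKM in shCSB, against 0.764 and 1.08 FPKM in shControl. Cebpg was higher in replicate 2, with 6.53 and 10.8 FPKM in shCSB/shNDN and 5.17 and 6.0 FPKM in shCSB, against 5.40 and 4.71 FPKM in shControl. Bhlhe40, the close relative of Bhlhe41, named here after its values were seen, overlapped between all groups at 29.4 and 24.0 FPKM in shCSB/shNDN and 39.0 and 20.5 FPKM in shCSB, against 24.7 and 25.6 FPKM in shControl.

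Other transcription factors of microglia and macrophages gave a median of 0.52 over 12 kept of 13 for shCSB/shNDN against shControl, with 11 above 0, where 49.0% of all genes were, 8 with both libraries above both controls, against 20.7% of all genes, and none past the adjusted threshold (limma). The median was 0.28 without replicate 1 and 0.81 without replicate 2 of shCSB/shNDN. Batf3 was at 3.12 and 3.44 FPKM in shCSB/shNDN and 1.68 and 1.30 FPKM in shCSB, against 1.12 and 1.55 FPKM in shControl. Sall1, which maintains the identity of microglia and is also among the microglia markers above, was at 6.22 and 3.94 FPKM in shCSB/shNDN and 2.47 and 3.58 FPKM in shCSB, against 2.93 and 2.28 FPKM in shControl. Nr1h3, a lipid-sensing receptor gene, had a log2 change of 0.54 against shControl.

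Upstream signals were followed through ligand and receptor genes. Of 12 ligand and receptor genes, 11 passed the filter, with a median of 1.10 for shCSB/shNDN against shControl. None passed the adjusted threshold (limma, smallest adjusted p = 0.257). Csf2rb passed the filter only through the shCSB/shNDN pair, so both its libraries had to lie above both controls. Without it the median of 10 was 1.09, and 8 of the 10 had both libraries above both controls, against 20.7% of all genes. The median of the 11 was 0.50 without replicate 1 and 1.75 without replicate 2 of shCSB/shNDN. Tgfbr1, a receptor for the TGF-beta that microglia depend on, had 10.2 and 4.98 FPKM in shCSB/shNDN and 3.16 and 4.43 FPKM in shCSB, against 2.84 and 1.87 FPKM in shControl. Csf2rb was at 2.29 and 0.650 FPKM in shCSB/shNDN and 0.151 and 0.185 FPKM in shCSB, against 0.0506 and 0.129 FPKM in shControl. Csf1r, the receptor for CSF1 and IL-34 and a PU.1 target, was at 74.3 and 25.3 FPKM in shCSB/shNDN and 19.8 and 25.1 FPKM in shCSB, against 18.2 and 19.7 FPKM in shControl. Its ligand gene Csf1 was at 14.2 and 4.65 FPKM in shCSB/shNDN and 3.24 and 3.78 FPKM in shCSB, against 3.29 and 3.79 FPKM in shControl. The other ligand gene, Il34, which neurons express, overlapped at 33.1 and 44.7 FPKM in shCSB/shNDN and 45.5 and 33.1 FPKM in shCSB, against 40.6 and 41.6 FPKM in shControl. Csf1r, Csf1 and Il34 were picked for their role after their values were seen.

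Of 17 genes described as PU.1 targets, Btk, Cybb and Ptprc passed the filter only through the shCSB/shNDN pair and so had to lie above 0. The other 14 all lay above 0 for shCSB/shNDN against shControl, with a median of 1.77, and 12 of these 14 had both libraries above both controls, against 20.7% of all genes. With the 3 included, the median of 17 was 1.53. None of the 17 passed the adjusted threshold (limma, smallest adjusted p = 0.105), and 11 of the 14 were higher at an unadjusted p under 0.05, against 6.71% of all genes. For all 17, the 3 included, the median was 0.75 without replicate 1 and 2.59 without replicate 2 of shCSB/shNDN. Trem2, a lipid receptor of microglia, had 80.4 and 34.1 FPKM in shCSB/shNDN and 6.37 and 7.57 FPKM in shCSB, against 5.79 and 5.04 FPKM in shControl. Its signalling adaptor Tyrobp had 367 and 80.2 FPKM in shCSB/shNDN and 28.4 and 25.7 FPKM in shCSB, against 23.8 and 22.1 FPKM in shControl. Aif1 and Laptm5 had log2 changes of 2.06 and 2.22 against shControl. For shCSB against shControl, 16 of the 17 lay above 0 with a median of 0.23, and none had an unadjusted p under 0.05. Csf1r, Csf2ra and Csf3r are also in the receptor list, so these lists are not independent.

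Of 11 genes described as MITF targets, 6 passed the filter, with a median of 0.36 for shCSB/shNDN against shControl and none past the adjusted threshold (limma, smallest adjusted p = 0.130). Acp5 passed the filter only through the shCSB/shNDN pair and so had to lie above 0, and without it the median of 5 was 0.22. The median of the 6 was 0.26 without replicate 1 and 0.46 without replicate 2 of shCSB/shNDN. Gpnmb, a glycoprotein gene of phagocytes and pigment cells, stood out at 144 and 19.6 FPKM in shCSB/shNDN and 0.487 and 0.423 FPKM in shCSB, against 0.490 and 0.555 FPKM in shControl, a log2 change of 5.17. Outside the pair it reached 0.5 FPKM only in replicate 2 of shControl, so Gpnmb too would not have passed the filter without shCSB/shNDN. It is still counted in the median of 5. The osteoclast enzyme gene Acp5 was at 2.05 and 0.518 FPKM in shCSB/shNDN and 0.0902 and 0 FPKM in shCSB, against 0.212 and 0 FPKM in shControl. Oscar and Clcn7 had log2 changes of 0.50 and 0.22.

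Antagonists of the members, such as partners that block C/EBP proteins or GATA factors that oppose PU.1, gave a median of -0.030 over 6 kept of 8 for shCSB/shNDN against shControl, with 3 above 0 and none past the adjusted threshold (limma, smallest adjusted p = 0.305). It was -0.049 without replicate 1 and -0.19 without replicate 2 of shCSB/shNDN. Trib1, which promotes breakdown of C/EBPα, was at 5.02 and 5.12 FPKM in shCSB/shNDN and 5.51 and 4.22 FPKM in shCSB, against 7.43 and 8.52 FPKM in shControl. Both hairpin groups lay below the controls, with log2 changes of -0.56 and -0.62. Ddit3, coding for the C/EBP antagonist CHOP, was at 18.7 and 17.6 FPKM in shCSB/shNDN and 19.9 and 17.4 FPKM in shCSB, against 20.4 and 21.0 FPKM in shControl. Id2 and Gata2 had log2 changes of -0.23 and 0.18 against shControl.

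**Figure D5:**
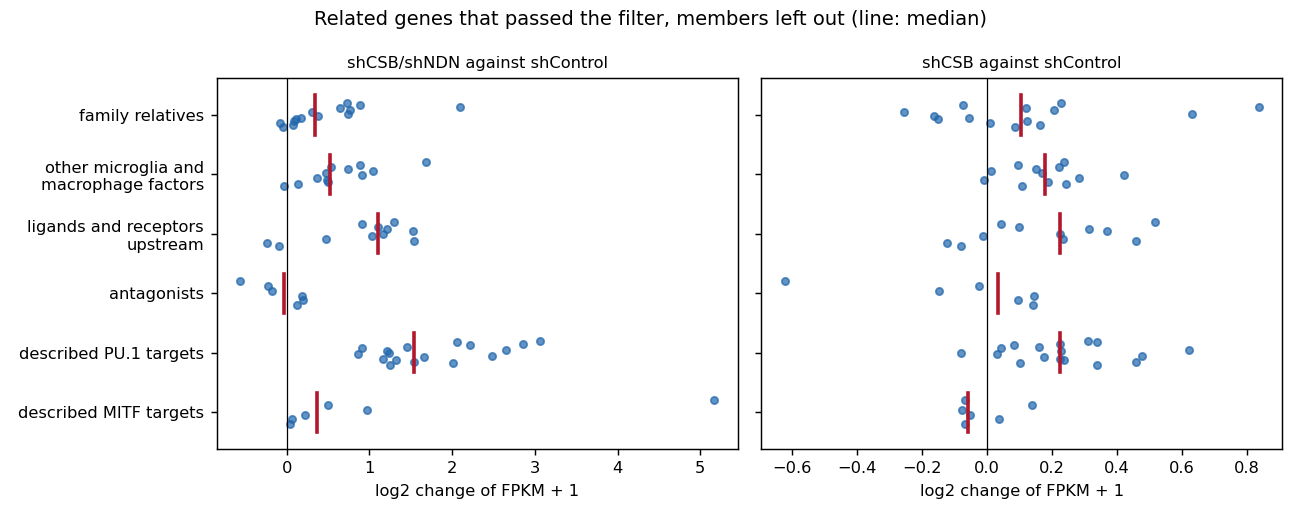
Fitted log2 change of FPKM + 1 (horizontal axis) of the related genes that passed the filter, by list, for shCSB/shNDN against shControl (left) and shCSB against shControl (right). Points are genes and red lines are medians, which on the left run from -0.030 for antagonists to 1.53 for described PU.1 targets, including genes that passed the filter only through shCSB/shNDN. The 2 panels have different horizontal scales.

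The genes whose profile over the 6 libraries was most like the mean standardized profile of the 8 tested members, among 13271 candidates with a mean of at least 1 FPKM, were Serpinf2, Lgmn, Mylip, Cd44 and Itgax, with Pearson r of 0.998 to 0.999. Lgmn, a lysosomal protease gene, had 162 and 94.2 FPKM in shCSB/shNDN and 52.4 and 56.6 FPKM in shCSB, against 51.0 and 50.7 FPKM in shControl. Itgax, the integrin chain CD11c, had 18.0 and 4.57 FPKM in shCSB/shNDN and 0.127 and 0.175 FPKM in shCSB, against 0 and 0.0279 FPKM in shControl. Serpinf2, Cd44 and Itgax passed the filter only through the shCSB/shNDN pair and so had to be higher in it. Their likeness to the members is therefore not independent of the filter. Lgmn and Mylip did not need that pair to pass. With Spi1 alone as the profile, the 5 genes were Arhgap17, F11r, P2rx7, Rps4x and Fcgr4, none shared with the first 5. Fcgr4 too would not have passed the filter without the shCSB/shNDN pair. In all, 54 genes had an r over 0.99 with the mean profile, and 6 points that share 1 high library give such values readily.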

How the data were processed

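The authors deposited FPKM values in a single table of all 6 libraries. Per the submitters' processing notes, the tools were FastQC and HISAT2 2.0.4 and the build was GRCm39. The counting program and its strand setting are not given in the sources used here. Positions in the table equalled those of GENCODE M21, on GRCm38, for 98.3% of the 54409 identifiers found in both, and coordinates therefore name GRCm38. Libraries were stranded and made from total RNA, per the labels' protocols.

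FPKM times gene length came in whole steps (tolerance 0.01) for 100% of values, from which reads were recovered, 15731788 to 17365285 per library. Of 54532 entries, 27 had symbols turned into dates, restored from the identifier, and entries sharing 1 of 100 symbols were added up. The filter required 0.5 FPKM in 2 or more libraries and left 16254 genes. limma 3.58.1 (R 4.3.3) was run on log2(FPKM + 1), with 1 mean per group, all libraries in the fit and a trended variance, and p values are two-sided with Benjamini-Hochberg adjustment over the genes kept. Log2 changes on this scale understate those of low genes. The series text gives 2 mice per genotype, so the replicates were taken as separate animals. Steps were tested on simulated data. Counting intervals (95%) cover counting error only.

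The members, lists and tests were chosen with earlier results of these data known. Named genes were the members, Ercc6 and Ndn, up to 4 genes per list with the smallest p for shCSB/shNDN against shControl, the 5 nearest profiles, and a few stated or shown for their role. Some genes of these lists are not reported by name here. Promoters came from RefSeq (GRCm38.p6) and figures were drawn with matplotlib 3.10.9.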

Additional observations from a re-analysis of the deposited data

How the results depend on the processing

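Alternatives were a pseudocount of 0.1, no filter, a mean of at least 1 FPKM, a replicate block, a fit of the 4 libraries in each comparison, quantile and trimmed-mean scaling, no mean-variance trend, a weight per library, limma-voom on recovered reads, and leaving out each library. For the related lists, leaving out each shCSB/shNDN library and leaving out genes kept only through that pair were chosen after seeing the data. An edgeR test was not run, since the deposited values are FPKM. Of 381 refitted member changes, 362 kept their direction and side of the threshold, 15 passed it anew, each without a shCSB/shNDN library, and 4 turned in sign.

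The number of members past the threshold was 0 under every alternative except without 1 library, where it ranged from 0 to 5 for shCSB/shNDN against shCSB and from 0 to 5 against shControl. Without 1 library, the median of the members ranged from 0.67 to 1.72 for shCSB/shNDN against shCSB, from 0.77 to 1.90 for shCSB/shNDN against shControl and from 0.040 to 0.16 for shCSB against shControl. The number of genes called ranged from 0 to 893, from 0 to 1808 and from 0 to 1 in these comparisons. Against shControl, where 1 gene was called for shCSB/shNDN, the count was 0 with no filter, with limma-voom and with only 4 libraries, 2 with a weight per library and 3 with the replicate block. For shCSB it was 1 with a weight per library and 2 with only 4 libraries. Changes that turned in sign were those of Mitf for shCSB against shControl, -0.033 with quantile normalization and -0.018 to 0.056 without 1 library, and of Irf5 for shCSB/shNDN, -0.22 to 1.97 against shCSB and -0.10 to 2.09 against shControl without 1 library. The cause was not tested.

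Same-numbered libraries did not deviate together (r = -0.071, -0.016 and 0.054 across genes for the 3 comparisons in the order above), so the number was not taken as a pairing, and the block changed no member's call. Runx1, at 8 to 16 reads in 5 libraries, is limited by depth.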

Other observations

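Some related factors were too low to test and differed between the 2 libraries labelled shCSB/shNDN. The ETS gene Elf4 had 1.32 and 0.304 FPKM in shCSB/shNDN and 0.0596 and 0.247 FPKM in shCSB, against 0.170 and 0.218 FPKM in shControl. Runx3, a relative of Runx1 known from T cells and dendritic cells, had 0.340 FPKM and was listed at 0 in shCSB/shNDN, had 0 and 0.0112 FPKM in shCSB, and was listed at 0 in both shControl libraries. Spib, the closest relative of Spi1 and a B cell and dendritic cell factor, had 0.184 and 0.346 FPKM in shCSB/shNDN and 0.0639 and 0.0784 FPKM in shCSB, against 0.107 and 0 FPKM in shControl. The growth factor gene Csf2 and the red cell factor gene Gata1 were listed at 0 in all 6 libraries.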
